A study of Mus musculus with 4 samples.

Results

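The genes described here are 8 of the 27998 listed in the deposited count tables. They are the costimulatory receptors Icos, Cd28, Cd27, Tnfrsf4 (OX40), Tnfrsf9 (4-1BB) and Tnfrsf18 (GITR), together with Cd40lg and Cd40, a ligand and its receptor. They were taken by name. All 8 were found in each of the 4 libraries. Wild-type 129S6 mice carried transplanted tumours, from which live CD45+ cells (leukocytes) were sorted after collagenase digestion, and the ends of their messenger RNAs were counted on a droplet instrument. One library came from mice given anti-PD-1 (clone RMP1-14), 1 from mice given anti-CTLA-4 (clone 9D9), 1 from mice given both antibodies (the combination), and 1 from mice given rat IgG2a (control). Each antibody dose was 200 µg into the peritoneum on days 3, 6 and 9 after transplant. The sources used here give neither the number of animals behind a library nor the tumour line.

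T cells need a signal beside the one from their antigen receptor. CD28 and ICOS give it on binding B7-family ligands of antigen-presenting cells, while CD27, OX40, 4-1BB and GITR belong to the tumour necrosis factor (TNF) receptor family and signal through TRAF adaptors to NF-kappaB. In tumours, regulatory T cells are known to carry much ICOS, OX40, 4-1BB and GITR. CD40 ligand on helper T cells binds CD40 on dendritic cells, macrophages and B cells and licenses them to prime T cells. CTLA-4 competes with CD28 for its ligands, and PD-1 restrains signalling downstream of CD28.

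The 4 libraries held between 3336 and 3945 cells that the authors' table places in 1 of 19 clusters, and 4987 cells appear again in a lymphoid table of 12 clusters. Listed cells summed to between 11176246 and 13374294 transcripts per library, each counted once by its unique molecular identifier (UMI). The libraries stand apart in shallow cells. Among T cell-like cells, 9.93% had under 1000 UMIs in the anti-PD-1 library, 5.06% in the anti-CTLA-4 library and 11.9% in the combination library, against 0.181% in control. Cell types were given to clusters from marker genes. Clusters 3, 6, 8, 9 and 10 were T cell-like: cluster 3 had Cd4 in 56.9% of cells, cluster 8 had Cd8a in 73.6%, cluster 9 held cycling cells with Mki67 in 58.0%, and cluster 10 was regulatory T cell-like with Foxp3 in 28.0% and Foxp3, Ikzf2 and Il2ra among its leading genes. Cluster 5 was NK cell-like, clusters 1, 2, 4, 7 and 15 were macrophage/monocyte-like, cluster 11 was conventional dendritic cell-like and cluster 17 was migratory dendritic cell-like. Clusters 0, 13 and 14 were not named. Cluster 0 carried macrophage markers with Il1r2 among its leading genes, cluster 13 had both Cd3d (72.9% of cells) and C1qb (83.0%), and cluster 14 was led by granzyme genes with Ncr1 in 89.1% of cells. A UMI of the myeloid gene Lyz2 was found in 46.9% of cluster 10 cells, and whether free RNA or doublets gave it was not tested.

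With 1 library for each group there is no replicate and no test, and the antibody, the animals, the batch and the library cannot be told apart. Levels below are summed UMIs of a gene per 1000000 UMIs of the same cells (CPM). Ratios are log2 of 2 such levels, with an exact 95% interval that covers counting error only. UMIs of 1 cell are not independent, and the spread between animals is not known.

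On the mouse genome (GRCm38, GENCODE M21) 4 of the receptor genes form 2 neighbouring pairs. Cd28 (chromosome 1, 60716800 to 60773359, plus strand) and Icos (chromosome 1, 60977927 to 61000320, plus strand) flank Ctla4, the gene of the receptor that anti-CTLA-4 binds. Tnfrsf4 (chromosome 4, 156013843 to 156016612, plus strand) and Tnfrsf18 (chromosome 4, 156026164 to 156028895, plus strand) are neighbours on the same strand, with 9551 bases between them that hold 2 annotated genes, Gm37090 and Gm25982. Tnfrsf9 lies elsewhere on chromosome 4 (150914562 to 150946102, plus strand), and overlaps Camta1 on the other strand. Cd27 lies on chromosome 6 (125232622 to 125237010, minus strand) and overlaps Vamp1 on the other strand and Mir8113 on its own. Icos overlaps Gm37039 on its own strand, and Tnfrsf18 overlaps Gm16008 on the other strand. Cd40lg is on chromosome X (57212143 to 57224042) and Cd40 on chromosome 2 (165055627 to 165072948), both on the plus strand. The sources used here do not state whether counting used strand. In T cell-like cells Vamp1 was counted at between 2.92 and 4.67 CPM in the 4 libraries, against 105 to 265 CPM for Cd27, and Camta1 at 40.9 to 56.5 CPM. Gm16008 was at 0.333 to 1.12 CPM in the same cells. The levels of Gm37039 and Mir8113 were not examined.

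The upstream sequences of the neighbours Tnfrsf4 and Tnfrsf18 are shown because these genes lie side by side and both were highest in clusters 10 and 3. Each is the part of the RefSeq promoter window (GRCm38.p6) that lies before the start of the gene, at chr4:156013445-156013694 (250 bases) and chr4:156026072-156026163 (92 bases), plus strand.
Tnfrsf4: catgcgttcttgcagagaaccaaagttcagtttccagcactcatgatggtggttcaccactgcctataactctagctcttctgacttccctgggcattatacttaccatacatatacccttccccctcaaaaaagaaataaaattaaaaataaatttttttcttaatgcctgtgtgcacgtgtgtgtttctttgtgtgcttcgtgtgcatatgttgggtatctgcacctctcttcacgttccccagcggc
Tnfrsf18: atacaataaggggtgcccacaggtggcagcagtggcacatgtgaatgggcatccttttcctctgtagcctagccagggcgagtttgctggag
Neither window, nor the Cd27 window, holds the AP-1 motif TGANTCA or the NF-kappaB consensus (kappa B) on either strand, so no base is in capitals. Among 32851 mouse promoter windows of 250 bases, 6.75% hold the AP-1 motif and 7.25% the kappa B motif. This says only that these letters are absent from these windows.

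Across cell clusters, 7 of the 8 genes were genes of T cells and Cd40 was a gene of antigen-presenting cells. T cell-like cells made up 26.4% of the cells listed and held between 71.0% (Tnfrsf9) and 91.3% (Tnfrsf4) of the UMIs of each of the 7. They held 2.09% of the Cd40 UMIs. After each cell was thinned to 1000 UMIs, Tnfrsf18 was detected in 39.5% of T cell-like cells and in 0.475% of macrophage/monocyte-like cells. Icos was detected in 26.8% of thinned T cell-like cells and 0.255% of macrophage/monocyte-like cells. Unthinned, the shares were 58.4% against 1.83% for Tnfrsf18 and 42.8% against 1.42% for Icos, at median depths of 1932 UMIs in T cell-like cells and 3595 UMIs in macrophage/monocyte-like cells.

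Among the CD28 family, Icos was highest in regulatory T cell-like cluster 10, at 858 CPM (799 to 922 by exact Poisson interval), followed by cluster 3 at 461 CPM (437 to 487). These intervals do not overlap. Clusters 6, 9 and 8 came next at 238, 204 and 190.1 CPM of Icos, and neighbours in that order have overlapping intervals. Cd28 had another order. It was highest in cluster 3 at 490 CPM, and clusters 9, 10 and 8 followed at 368, 355 and 347 CPM with overlapping intervals. NK cell-like cluster 5 had 49.6 CPM of Icos and 78.3 CPM of Cd28, and cluster 14 had 46.9 CPM of Icos and 84.1 CPM of Cd28.

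The TNF receptor genes differed in which killer cells carried them. Tnfrsf4 was highest in cluster 10 at 1809 CPM and in cluster 3 at 918 CPM, and in the Cd8a-rich cluster 8 it was at 64.8 CPM. It was at 4.96 CPM in NK cell-like cells and 0.886 CPM in cluster 14 (a single UMI), near or below the 4.15 CPM of macrophage/monocyte-like cells. Tnfrsf18 shared the order of cluster 10 (1204 CPM) before cluster 3 (791 CPM), yet NK cell-like cells carried 282 CPM and cluster 14 carried 146 CPM. Tnfrsf9, an activation marker of CD8 T and NK cells, was highest in cluster 10 at 523 CPM, and the second highest level was that of cluster 14 at 264 CPM. Cluster 3 had 162 CPM and NK cell-like cells had 83.3 CPM of Tnfrsf9. Cd27, which marks less differentiated lymphocytes, was highest in cluster 10 (384 CPM), then in cluster 8 (247 CPM), cluster 6 (167 CPM) and NK cell-like cells (147 CPM). Tnfrsf4, Tnfrsf9, Icos, Tnfrsf18 and Cd27 are all among the 10 leading genes of cluster 10. The clusters come from the expression of these same cells, so these levels describe the clusters and are no test.

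Migratory dendritic cell-like cells also had Tnfrsf18 (193 CPM) and Tnfrsf4 (149 CPM), and 17.4% of them had a UMI of Cd3d. Whether these counts come from the dendritic cells was not tested.

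The lymphoid table divides the same cells more finely. Its cluster 7, led by Foxp3, had the highest levels of Icos (1159.9 CPM), Tnfrsf4 (2195 CPM), Tnfrsf18 (1491 CPM), Tnfrsf9 (653 CPM) and Cd27 (518 CPM). Cluster 2, with Cd4 in 60.4% of cells, followed for Icos (538 CPM), Tnfrsf4 (1237 CPM) and Tnfrsf18 (862 CPM). Cluster 11, led by Ifng, Ccl3 and Ccl4 and with Cd8a in 45.3% of cells, had 1019 CPM of Tnfrsf4 and 408 CPM of Tnfrsf9 from 95 cells.

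Cd40lg was sparse, with 159 UMIs in all listed cells. It was highest in cluster 3 at 32.6 CPM (26.3 to 39.9) and next in cluster 6 at 14.2 CPM (8.77 to 21.7). In the lymphoid table it was found in clusters 2, 1 and 4 at 38.0, 29.0 and 27.9 CPM, where Cd4 was found in 60.4%, 24.1% and 57.9% of cells. None was counted in the Foxp3-led cluster 7, where a count of 0 allows up to 5.00 CPM. Macrophage/monocyte-like cells had 1 UMI of Cd40lg in 6056 cells.

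Cd40 was highest in migratory dendritic cell-like cluster 17, at 509 CPM (448 to 576), and a UMI was found in 59.1% of its cells. Cluster 7, a macrophage/monocyte-like cluster led by interferon-response genes such as Rsad2 and Ifit2, had 119 CPM. Conventional dendritic cell-like cluster 11 had 107 CPM, cluster 0 had 102 CPM, and their intervals overlap that of cluster 7. Macrophage/monocyte-like clusters 2, 4 and 1 followed at 65.5, 56.0 and 46.9 CPM. By UMIs, 52.8% of Cd40 lay in macrophage/monocyte-like cells, 26.8% in cluster 0, and 15.1% in clusters 11 and 17 together. B cells could not be assessed: 20 listed cells had 3 or more B cell markers and they held 3 Cd40 UMIs.

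**Figure D1:**
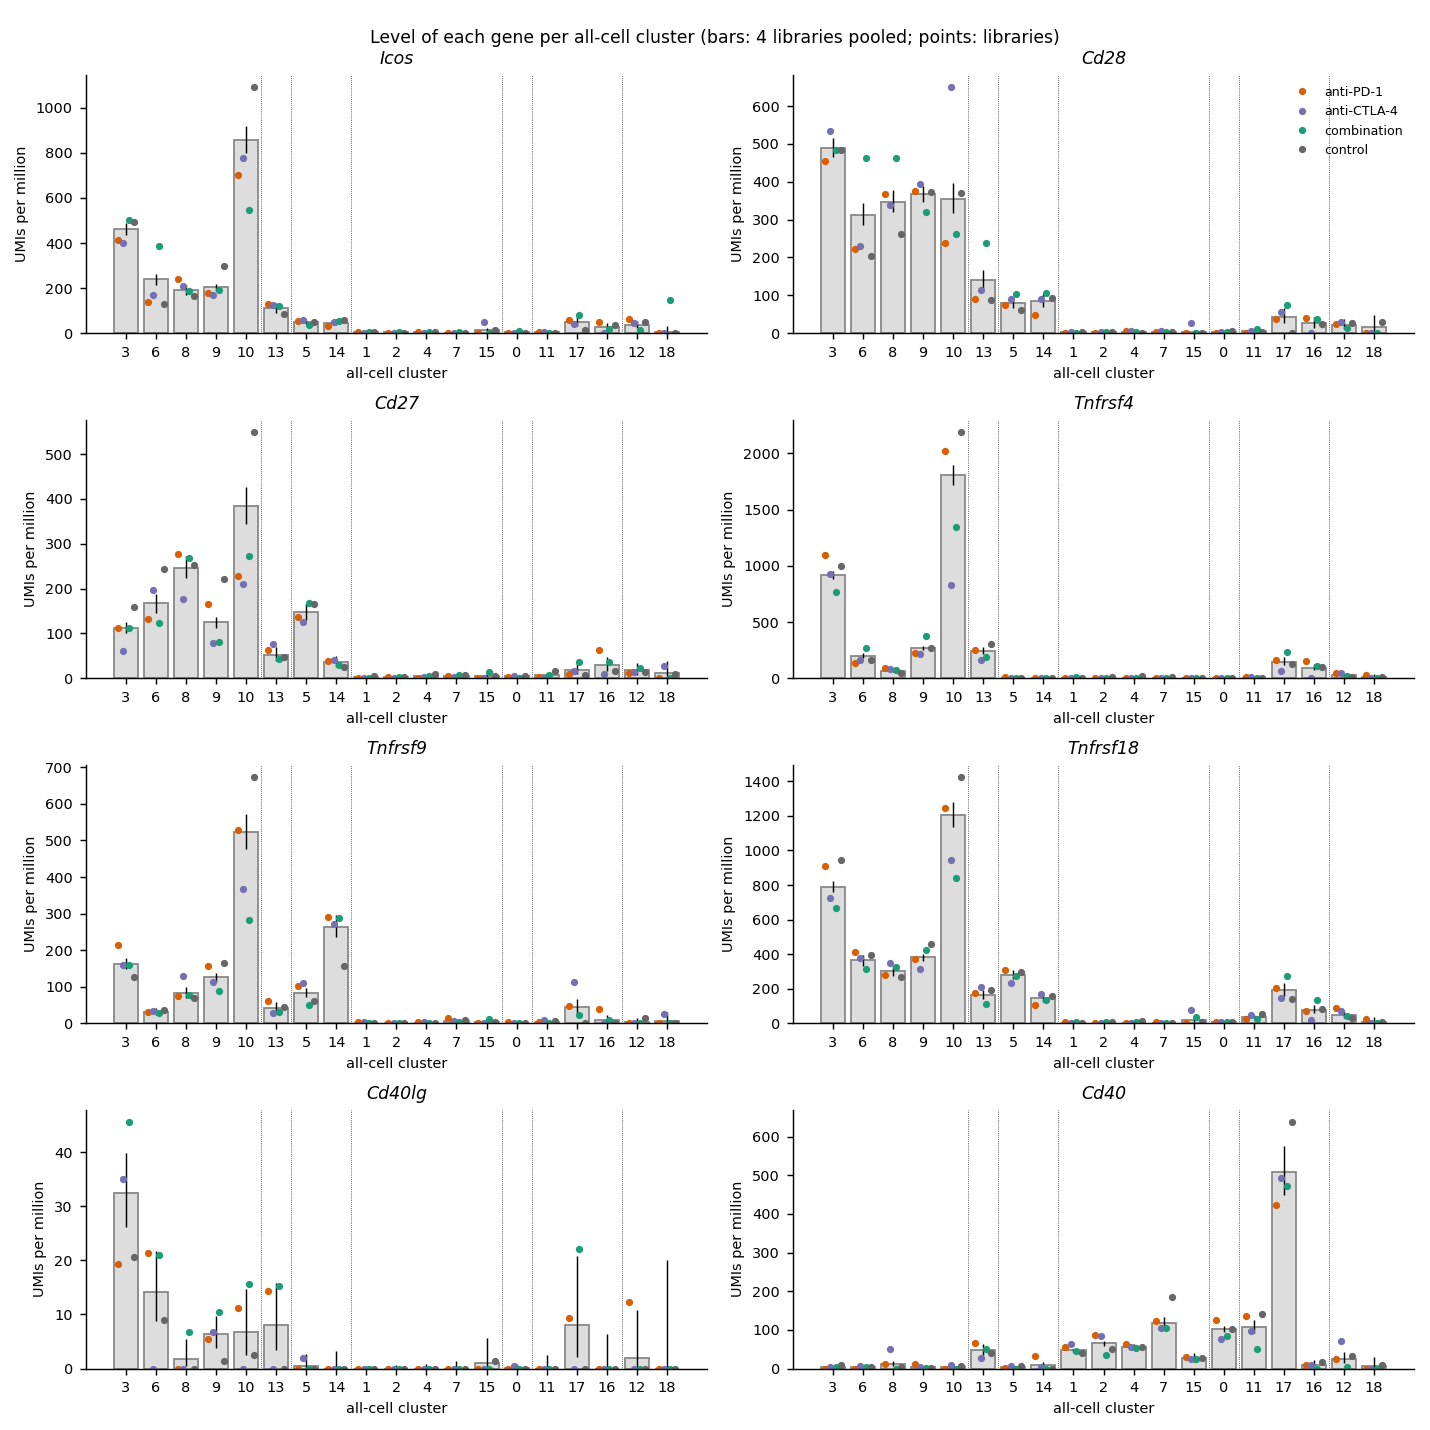
Level of each gene (CPM within the cluster, linear axes starting at 0) in the 19 all-cell clusters, ordered by class with dotted lines between classes. Bars pool the 4 libraries with exact 95% Poisson intervals, and points are single libraries. Cluster 10 has the tallest bar for Icos, Cd27, Tnfrsf4, Tnfrsf9 and Tnfrsf18, cluster 3 for Cd28 and Cd40lg, and cluster 17 for Cd40.

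The genes with the most similar pattern over the 19 clusters, by Pearson's r of log2(CPM + 10), are given as a description. Icos was most like Cd247 (r = 0.97), Cd28 (0.96) and Ifng (0.96). Cd28 was most like Zap70 (0.99), Cd247 (0.98) and Lck (0.97), all of which encode parts of T cell receptor signalling. Cd27 was most like Cd2 (0.98), Ikzf3 and Gimap3 (both 0.97), and Tnfrsf18 like Cd2 and Satb1 (both 0.97) and Gimap7 (0.96). Tnfrsf4 was most like Cd4 (0.96), Cd5 (0.96) and Sdf4 (0.94). Tnfrsf9 was most like Camk4 (0.95), Rhof and Klrg1 (both 0.93). Cd40lg was most like Cd4 (0.91), Tnfsf8 (0.85) and Arap2 (0.84), on few UMIs. Cd40 was most like Rap2a (0.95), Procr (0.94) and Cd86 (0.94), the last being a ligand of CD28. These points share their libraries and cells, so the values describe a pattern only.

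In the T cell-like cells as a class, Cd27 was lower with each antibody. It was at 167 CPM with anti-PD-1, 105 CPM with anti-CTLA-4 and 139 CPM with the combination, against 265 CPM in control. All 3 antibody libraries lie below control. The log2 ratios were -0.67 (-0.87 to -0.47), -1.34 (-1.55 to -1.13) and -0.93 (-1.11 to -0.75). Giving every library the same mix of T cell-like clusters left -0.53, -1.05 and -0.81.

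Icos was also lower with each antibody, at 302 CPM with anti-PD-1, 258 CPM with anti-CTLA-4 and 357 CPM with the combination, against 414 CPM in control. Its ratios were -0.45 (-0.60 to -0.30), -0.68 (-0.82 to -0.54) and -0.21 (-0.33 to -0.09), and with the common mix -0.33, -0.35 and -0.12. Cd28 did not follow Icos. It had 359.5 CPM with anti-PD-1, 416 CPM with anti-CTLA-4 and 421 CPM with the combination, against 354 CPM in control, so that anti-CTLA-4 (0.23, 0.10 to 0.36) and the combination (0.25, 0.13 to 0.37) lay slightly above control. The ratio of anti-PD-1 was 0.023 with an interval of -0.12 to 0.17. With the common mix the ratios of Cd28 were 0.031, 0.25 and 0.20.

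The neighbours Tnfrsf4 and Tnfrsf18 went the same way. Tnfrsf4 had 626 CPM with anti-PD-1, 402 CPM with anti-CTLA-4 and 506 CPM with the combination, against 672 CPM in control, giving ratios of -0.10 (-0.21 to 0.01), -0.74 (-0.85 to -0.63) and -0.41 (-0.51 to -0.31). Tnfrsf18 had 611 CPM with anti-PD-1, 456 CPM with anti-CTLA-4 and 500.2 CPM with the combination, against 672 CPM in control, giving -0.14 (-0.25 to -0.03), -0.56 (-0.67 to -0.45) and -0.43 (-0.53 to -0.33). For both genes anti-PD-1 lay closest to control and anti-CTLA-4 farthest from it, as they did with the common mix, where the ratios were 0.026, -0.42 and -0.18 for Tnfrsf4 and -0.095, -0.35 and -0.33 for Tnfrsf18.

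Tnfrsf9 had 179 CPM with anti-PD-1, 129 CPM with anti-CTLA-4 and 112 CPM with the combination, against 194 CPM in control. Its ratios were -0.12 (-0.32 to 0.09), -0.59 (-0.80 to -0.39) and -0.79 (-0.99 to -0.59), and 1 cell held 11.3% of the combination's Tnfrsf9 UMIs. With the common mix they were 0.061, -0.25 and -0.51.

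Cd40lg went the opposite way. It had 21 UMIs with anti-PD-1 (11.8 CPM), 30 UMIs with anti-CTLA-4 (12.01 CPM) and 73 UMIs with the combination (24.3 CPM), against 19 UMIs in control (6.93 CPM). The combination lay above control by 1.81 (1.07 to 2.62), above anti-PD-1 by 1.05 (0.33 to 1.82) and above anti-CTLA-4 by 1.02 (0.39 to 1.68), while the intervals of anti-PD-1 (0.77, -0.20 to 1.74) and anti-CTLA-4 (0.79, -0.08 to 1.70) against control included 0. With the common mix the ratios against control were 0.57, 0.67 and 1.57.

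Past a log2 ratio of 0.58 in T cell-like cells, 1 of the 7 T cell genes was higher and 1 lower with anti-PD-1, against 10.1% higher and 10.1% lower among all 8819 genes with at least 20 UMIs. With anti-CTLA-4, 1 was higher and 4 were lower, against 10.7% higher and 13.9% lower of all genes. With the combination, 1 was higher and 2 were lower, against 9.36% higher and 11.6% lower of all genes. The median ratio of the 7 genes was -0.12 in the anti-PD-1 library, -0.59 in the anti-CTLA-4 library and -0.41 in the combination library, beside medians over all genes of 0.0015, -0.024 and -0.027. With a common mix of clusters the medians of the 7 were 0.026, -0.35 and -0.18. The median of the combination was -0.26 against anti-PD-1 and 0.33 against anti-CTLA-4, and both signs depend on the processing. The median against anti-PD-1 was 0.19 with cells thinned to 1000 UMIs, and the median against anti-CTLA-4 was -0.11 as mean UMIs per cell.

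The cells behind these class levels differed in mix. The regulatory T cell-like cluster 10, where 5 of the genes are highest, made up 11.8% of the T cell-like cells in the anti-PD-1 library (82 cells), 6.23% in the anti-CTLA-4 library (48 cells) and 7.25% in the combination library (91 cells), against 16.4% in control (182 cells). Of 4 regulatory T cell genes in the same class, 3 were past 0.58 lower in the anti-PD-1 library, 2 in the anti-CTLA-4 library and 3 in the combination library, with medians of -0.74, -0.83 and -1.20. Among all genes tested, 10.1%, 13.9% and 11.6% were past 0.58 lower in the same order. Not all 4 were lower: 1 was above control with anti-PD-1 and 1 with the combination. Foxp3 was at 10.3 CPM with the combination against 47.4 CPM in control (-2.20, -2.81 to -1.62), and Ikzf2 at 64.6 against 204 CPM (-1.66, -1.90 to -1.42). The common-mix values above hold the shares of the 5 T cell-like clusters equal and not the mix within a cluster.

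**Figure D2:**
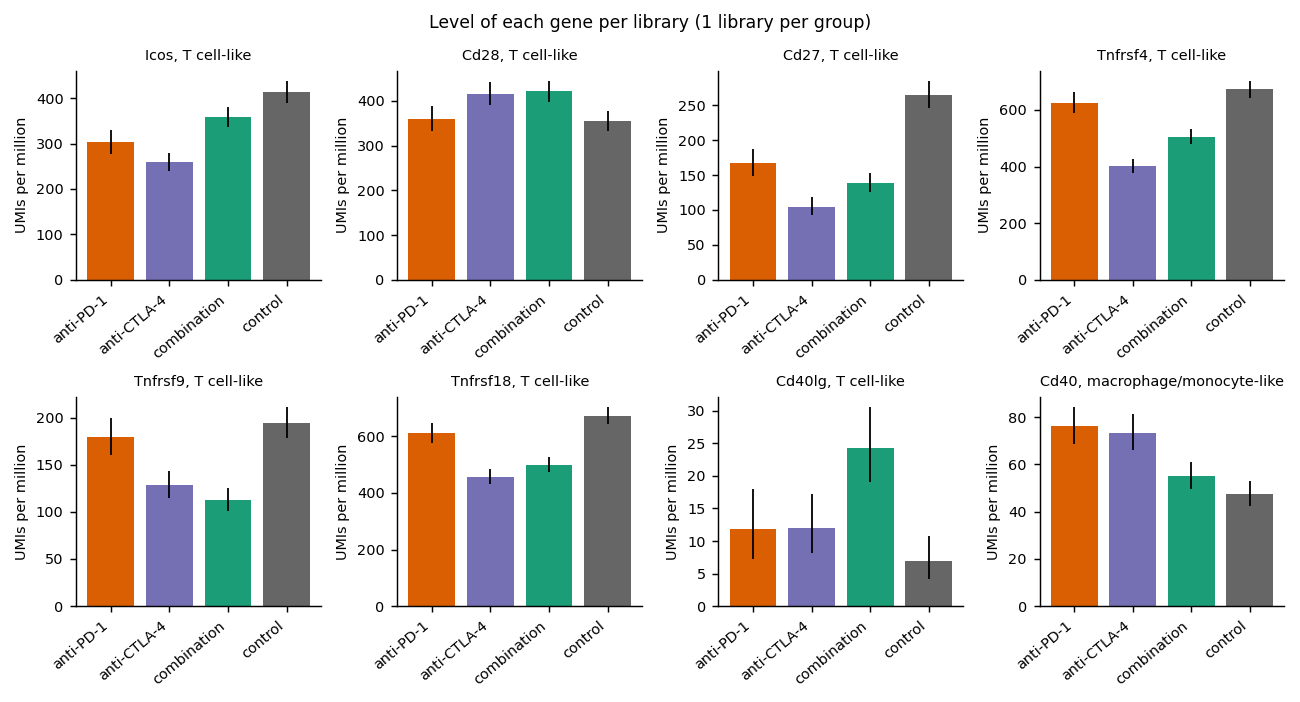
Level of each gene per library (CPM, bars starting at 0, 1 library per group) with exact 95% Poisson intervals, in T cell-like cells for 7 genes and in macrophage/monocyte-like cells for Cd40. Cd27 is at 167, 105 and 139 CPM in the antibody libraries against 265 CPM in control, and Cd40lg reaches 24.3 CPM with the combination against 6.93 CPM in control.

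Within regulatory T cell-like cluster 10 most of the receptors were lower too, but its cells were not alike between libraries. The Foxp3-led cluster 7 of the lymphoid table took in 47 of its 82 cells in the anti-PD-1 library (57.3%), 24 of 48 in the anti-CTLA-4 library and 53 of 91 in the combination library (58.2%), against 157 of 182 in control (86.3%). The Ifng-led lymphoid cluster 11 took in 23 in the anti-PD-1 library (28.0%), 14 in the anti-CTLA-4 library (29.2%) and 18 in the combination library (19.8%), against 18 in control (9.89%).

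Icos in cluster 10 was at 701 CPM with anti-PD-1, 779 CPM with anti-CTLA-4 and 545 CPM with the combination, against 1094 CPM in control (-0.64, -0.49 and -1.004). A single anti-CTLA-4 cell held 42 of that library's 85 Icos UMIs in the cluster, and without the top cell of each library its ratio was -1.42. Tnfrsf4 was at 2024.0 CPM with anti-PD-1, 825 CPM with anti-CTLA-4 and 1348 CPM with the combination, against 2189 CPM in control (-0.11 with an interval that includes 0, -1.41 and -0.70). Tnfrsf9 was at 528 CPM with anti-PD-1, 367 CPM with anti-CTLA-4 and 283 CPM with the combination, against 673 CPM in control (-0.35, -0.88 and -1.25).

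Tnfrsf18 in cluster 10 was at 1246 CPM with anti-PD-1, 945 CPM with anti-CTLA-4 and 839 CPM with the combination, against 1424 CPM in control (-0.19 with an interval that includes 0, -0.59 and -0.76). Cd27 was at 228 CPM with anti-PD-1, 211 CPM with anti-CTLA-4 and 273 CPM with the combination, against 549 CPM in control (-1.27, -1.38 and -1.01). The combination thus lay below control for each of the 6 genes with enough UMIs, Cd28 included (-0.49, -0.99 to -0.02). Past 0.58, 3 of 6 were lower in the anti-PD-1 library, 4 of 6 in the anti-CTLA-4 library and 5 of 6 in the combination library, against 22.2%, 25.8% and 21.3% of all genes tested in that cluster. Cd28 with anti-CTLA-4 was the exception at 0.82 (0.39 to 1.23), but 1 cell held 30 of the 71 UMIs and the ratio without top cells was 0.16.

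Leaving the cells of lymphoid cluster 11 out of cluster 10, an alternative chosen after seeing the data, changed several of these values. Tnfrsf18 with anti-PD-1 turned to 1851 CPM against 1531 CPM in control (0.27, 0.015 to 0.53). Icos with anti-CTLA-4 came to -0.056 (-0.43 to 0.30) with its top cell kept. Past 0.58, 1 of 6 genes was then lower in the anti-PD-1 library, 3 of 6 in the anti-CTLA-4 library and 5 of 6 in the combination library. The share of all genes past 0.58 was not computed for this smaller set of cells, so these counts have no background beside them. Cd27 kept its direction, at -0.88, -1.34 and -0.92 with intervals below 0. With the combination Icos (-1.09), Tnfrsf4 (-0.62), Tnfrsf9 (-0.86) and Tnfrsf18 (-0.62) had intervals below 0, and the interval of Cd28 (-0.42) included 0. With anti-CTLA-4 Tnfrsf4 (-0.99), Tnfrsf9 (-1.18) and Tnfrsf18 (-0.35) lay below 0, and Cd28 (0.36) had an interval that includes 0. With anti-PD-1 Icos (-0.44) lay below 0, and the intervals of Cd28 (-0.39), Tnfrsf4 (-0.14) and Tnfrsf9 (-0.13) included 0.

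The Foxp3-led cluster 7 of the lymphoid table held 53 cells of the anti-PD-1 library, 28 of the anti-CTLA-4 library and 59 of the combination library, against 185 of the control library. Tnfrsf4 there was at 2016 CPM with anti-PD-1, 1427 CPM with anti-CTLA-4 and 1388 CPM with the combination, against 2468 CPM in control, and all 3 ratios (-0.29, -0.79 and -0.83) had intervals below 0. Tnfrsf18 was at 1907 CPM with anti-PD-1, 1403 CPM with anti-CTLA-4 and 1016 CPM with the combination, against 1520.1 CPM in control. The anti-PD-1 library was therefore above control (0.33, 0.05 to 0.59) and the combination below it (-0.58, -0.93 to -0.25). Icos with anti-CTLA-4 was at 0.47 (0.09 to 0.83) in that cluster and at -0.77 without the top cell of each library, since 1 cell with 42 UMIs lies in this cluster. The other Icos ratios were -0.056 with anti-PD-1 (-0.41 to 0.28) and -0.82 with the combination (-1.25 to -0.42). Tnfrsf9 there was at 844 CPM with anti-PD-1, 333 CPM with anti-CTLA-4 and 458 CPM with the combination, against 691 CPM in control (0.29 with an interval that includes 0, -1.05 and -0.59). Cd27 in the same cluster was at 368 CPM with anti-PD-1, 333 CPM with anti-CTLA-4 and 446 CPM with the combination, against 579 CPM in control (-0.66, -0.80 and -0.38, the last with an interval that includes 0). The ratios of Cd28 were -0.15, 0.25 and -0.29, all with intervals that include 0.

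Cluster 6 of the all-cell table was the shallowest T cell-like cluster, at a median of 1246 UMIs, and was led by Il7r, Cd7, Bcl2 and Ltb. With the combination it differed from cluster 10 in direction for Icos, Cd28 and Tnfrsf4, a difference that was not tested. Icos was at 138 CPM with anti-PD-1, 169.6 CPM with anti-CTLA-4 and 387 CPM with the combination, against 129 CPM in control, and the combination's ratio was 1.58 (1.10 to 2.09). Cd28 was at 224 CPM with anti-PD-1, 231 CPM with anti-CTLA-4 and 463 CPM with the combination, against 204 CPM in control (1.18 for the combination, 0.79 to 1.59). Tnfrsf4 was at 135 CPM with anti-PD-1, 166 CPM with anti-CTLA-4 and 266 CPM with the combination, against 165 CPM in control (0.69 for the combination, 0.23 to 1.16, and 0.44 without top cells). In this cluster 3 of 6 genes were past 0.58 higher with the combination, against 15.8% of all genes tested there. Cd27 was lower in the same cells, at 124 CPM with the combination against 243 CPM in control (-0.97, -1.45 to -0.49). Tnfrsf9 (-0.37) and Tnfrsf18 (-0.31) also lay below control there with the combination, with intervals that include 0.

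In the lymphoid table, cluster 1, led by Klf2, Il7r and Cd69, held 25.4% of lymphoid cells with the combination against 4.85% in control, and Icos there was at 474 CPM with the combination against 268 CPM in control (0.82, 0.24 to 1.45). Cd28 in lymphoid cluster 1 was at 502 CPM with the combination against 358 CPM in control (0.49, -0.02 to 1.03), and Tnfrsf4 at 381 CPM against 447 CPM (-0.23, -0.70 to 0.27). The lymphoid table's Cd8a-rich cluster 8 had 514 CPM of Cd28 with the combination against 149.6 CPM in control (1.78, 1.09 to 2.54), with anti-CTLA-4 (1.62, 0.83 to 2.46) and anti-PD-1 (1.11, 0.14 to 2.08) also above control on 44 and 20 UMIs. Cluster 6 shared 298 of its 409 cells with lymphoid cluster 1 in the combination library (72.9%), against 55 of 204 in control (27.0%). With lymphoid cluster 6 it shared 15.2% of its cells in the combination library, against 55.9% in control. The share of cluster 6 in lymphoid cluster 1 was 42.2% in the anti-PD-1 library and 45.5% in the anti-CTLA-4 library.

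In Cd8a-rich cluster 8 each of the 6 genes with enough UMIs was above control with the combination, for Cd28 alone by more than its interval. The median of the 6 was 0.22, beside -0.014 over all 4810 genes tested there. Past 0.58, 2 of the 6 were higher with the combination, against 14.4% of all genes tested. Cd28 was at 367 CPM with anti-PD-1, 339 CPM with anti-CTLA-4 and 464 CPM with the combination, against 263 CPM in control, and the combination's ratio was 0.82 (0.52 to 1.12). Tnfrsf9 was at 74.3 CPM with anti-PD-1, 131 CPM with anti-CTLA-4 and 76.9 CPM with the combination, against 70.4 CPM in control, and the interval of anti-CTLA-4 alone lay above 0 (0.89, 0.22 to 1.55). Tnfrsf4 was at 89.9 CPM with anti-PD-1, 84.7 CPM with anti-CTLA-4 and 70.2 CPM with the combination, against 42.2 CPM in control, on 23 to 31 UMIs each, and the single antibodies had intervals above 0. Cd27 in cluster 8 was at 278 CPM with anti-PD-1, 176 CPM with anti-CTLA-4 and 267 CPM with the combination, against 252 CPM in control.

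Cd27 had an interval below 0 in 4 of the 5 T cell-like clusters of the all-cell table with each antibody library. The exceptions were cluster 8 with anti-PD-1 (0.14) and the combination (0.08), and cluster 6 with anti-CTLA-4 (-0.31, -0.81 to 0.20). In the 9 T cell-like clusters of the lymphoid table the interval of Cd27 lay below 0 in 2 clusters in the anti-PD-1 library, in 5 in the anti-CTLA-4 library and in 2 in the combination library, and above 0 in none, and the ratio itself was negative in 8, 8 and 6. In cycling cluster 9, Cd27 was at 165 CPM with anti-PD-1, 78.7 CPM with anti-CTLA-4 and 79.8 CPM with the combination, against 222 CPM in control (-0.43, -1.50 and -1.48). Icos was likewise lower in cluster 9, at -0.75 in the anti-PD-1 library, -0.83 in the anti-CTLA-4 library and -0.64 in the combination library, all with intervals below 0. Tnfrsf4 in cluster 9 was higher with the combination, at 377 CPM against 268 CPM in control (0.49, 0.22 to 0.77). In Cd4-rich cluster 3, Tnfrsf4 was lower with the combination (-0.39, -0.54 to -0.24), and Tnfrsf18 was lower with anti-CTLA-4 (-0.39, -0.56 to -0.21) and the combination (-0.50, -0.65 to -0.34).

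The small Ifng-led cluster 11 of the lymphoid table, with 19 to 28 cells per library, had wide differences. Tnfrsf4 was at 1803 CPM with anti-PD-1, 229 CPM with anti-CTLA-4 and 812 CPM with the combination, against 789 CPM in control (1.19, -1.78 and 0.04). Anti-PD-1 lay above control and anti-CTLA-4 below it. Icos there was at 511 CPM with anti-PD-1, 246 CPM with anti-CTLA-4 and 396 CPM with the combination, against 175 CPM in control, where it had 12 UMIs (1.54, 0.49 and 1.18, the second with an interval that includes 0).

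**Figure D3:**
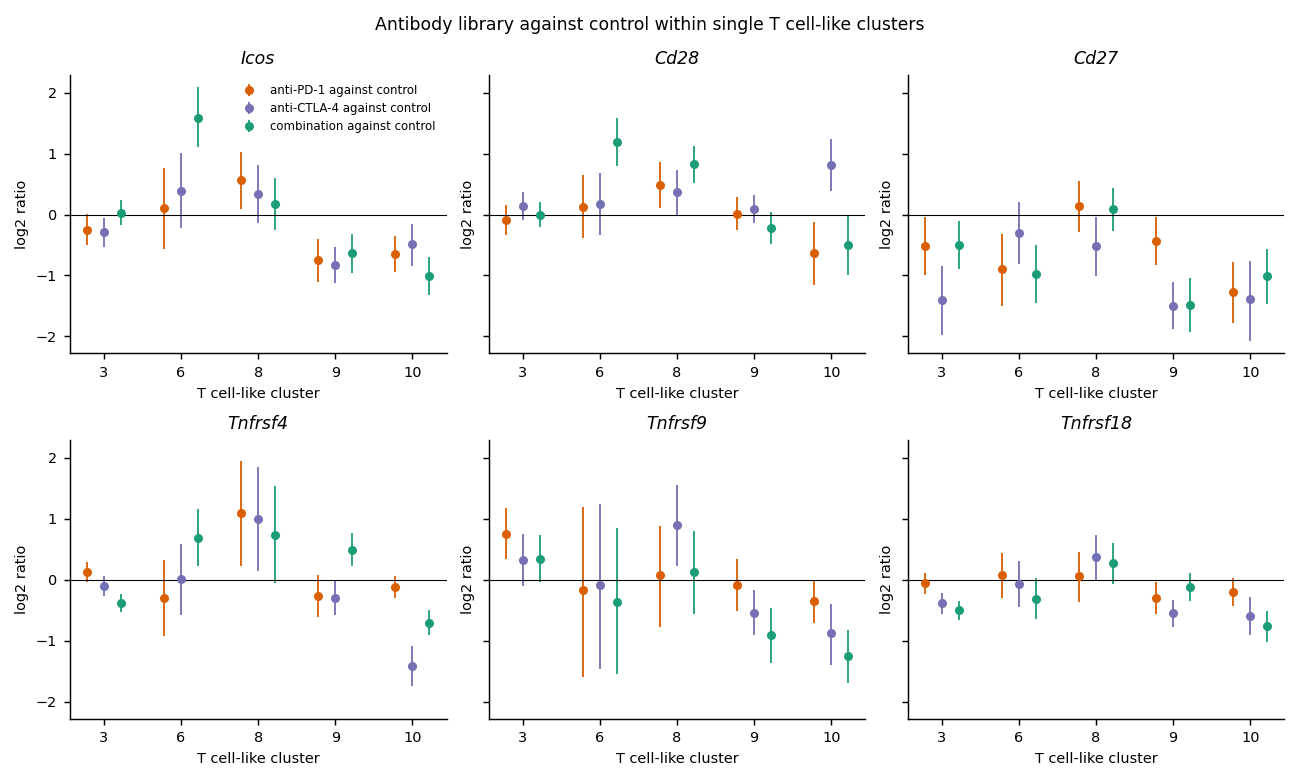
Log2 ratio of each antibody library against control within the 5 T cell-like clusters, for the 6 genes with at least 20 UMIs there, with exact 95% intervals that cover counting error only. Points of cluster 10 lie below 0 except Cd28 with anti-CTLA-4 (0.82), while the combination stands above 0 in cluster 6 for Icos (1.58), Cd28 (1.18) and Tnfrsf4 (0.69).

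Tnfrsf9 had opposite directions in some clusters. In regulatory T cell-like cluster 10 it was lower with anti-CTLA-4 and the combination, with and without the cells of lymphoid cluster 11. In lymphoid cluster 2, rich in Cd4 and poor in Foxp3 (0.707% of cells), it was at 312 CPM with anti-PD-1, 232 CPM with anti-CTLA-4 and 206 CPM with the combination, against 132 CPM in control. The ratios were 1.24 (0.61 to 1.91), 0.82 (0.18 to 1.49) and 0.64 (0.05 to 1.28), and 1 combination cell with 38 of 140 UMIs brings the last to 0.22 when top cells are left out. Other Cd4 cells showed less. The ratios were 0.75, 0.33 and 0.34 in cluster 3 of the all-cell table. In lymphoid T cell-like cells with Cd4 and no Foxp3 or Cd8a UMI they were 0.47, -0.25 and 0.13. In both sets the intervals of anti-CTLA-4 and the combination included 0. In cluster 14 Tnfrsf9 was at 291 CPM with anti-PD-1, 272 CPM with anti-CTLA-4 and 288 CPM with the combination, against 157 CPM in control (0.89, 0.79 and 0.87, all intervals above 0). In NK cell-like cells it was at 101 CPM with anti-PD-1, 111 CPM with anti-CTLA-4 and 50.4 CPM with the combination, against 61.4 CPM in control. There the single antibodies lay above control (0.72 and 0.85) and the combination, with 16 UMIs, did not differ detectably at this depth (-0.29, -1.23 to 0.59).

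Gating lymphoid T cell-like cells by single genes instead of clusters gave few Foxp3-positive cells. The anti-PD-1 library held 23 of them, the anti-CTLA-4 library 13 and the combination library 20, against 95 in control. Icos in them was at 744 CPM with anti-PD-1, 551 CPM with anti-CTLA-4 and 579.6 CPM with the combination, against 1258 CPM in control (-0.76, -1.19 and -1.12). Tnfrsf4 was at 2065 CPM with anti-PD-1, 1475 CPM with anti-CTLA-4 and 1525 CPM with the combination, against 2204 CPM in control (-0.09 with an interval that includes 0, -0.58 and -0.53), and 1 cell held 45.3% of the anti-PD-1 UMIs. Cd27 was at 624 CPM with anti-PD-1 (26 UMIs), 98.3 CPM with anti-CTLA-4 (5 UMIs) and 641 CPM with the combination (21 UMIs), against 412 CPM in control (107 UMIs), and the anti-CTLA-4 library lay below control (-2.07, -3.72 to -0.80) while the intervals of anti-PD-1 (0.60) and the combination (0.64) included 0. Cd28 was at 1249 CPM with anti-PD-1 against 362 CPM in control, but 1 cell held 76.9% of those anti-PD-1 UMIs.

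In cells with Cd4 and no Foxp3 or Cd8a UMI, Tnfrsf4 was at 1041.5 CPM with anti-PD-1, 738 CPM with anti-CTLA-4 and 578 CPM with the combination, against 992 CPM in control (0.07, -0.43 and -0.78), and Tnfrsf18 had 881 CPM with anti-PD-1, 654 CPM with anti-CTLA-4 and 579.7 CPM with the combination, against 968 CPM in control (-0.14, -0.56 and -0.74). In cluster 10, 28.0% of cells had a Foxp3 UMI, and whether the gate without Foxp3 holds regulatory cells was not tested. In Cd8a-positive cells without Cd4 or Foxp3, Cd27 was at 244 CPM with anti-PD-1, 140.0 CPM with anti-CTLA-4 and 201 CPM with the combination, against 272 CPM in control (-0.16 with an interval that includes 0, -0.96 and -0.44).

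Cd40lg was higher with the combination in cluster 3, its leading cluster. There it was at 19.3 CPM with anti-PD-1, 35.0 CPM with anti-CTLA-4 and 45.6 CPM with the combination, against 20.7 CPM in control, and the combination (47 UMIs) against control (14 UMIs) gave 1.14 (0.26 to 2.12). Within lymphoid cluster 2 the level was 44.1 CPM with the combination against 28.3 CPM in control, a ratio of 0.64 on 30 and 6 UMIs whose interval includes 0. That cluster made up 9.89% of lymphoid cells in the anti-PD-1 library, 11.98% in the anti-CTLA-4 library and 17.7% in the combination library, against 5.54% in control.

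Its receptor Cd40 gave another picture by cell type. In macrophage/monocyte-like cells it was at 76.2 CPM with anti-PD-1, 73.5 CPM with anti-CTLA-4 and 55.0 CPM with the combination, against 47.4 CPM in control, giving 0.69 (0.47 to 0.90), 0.63 (0.41 to 0.85) and 0.22 (-0.01 to 0.44). Past 0.58, 8.58% of all genes were higher and 17% lower in these cells with anti-PD-1, 9.04% higher and 19.9% lower with anti-CTLA-4, and 8.4% higher and 23.8% lower with the combination. The median over all genes was -0.12, -0.16 and -0.21, and median-of-ratios scaling differed from total UMIs by -0.068, -0.11 and -0.15 on the log2 scale in these cells. The mix of clusters differed strongly. Cluster 1, where Cd40 is lowest among the larger macrophage/monocyte-like clusters, held 307 cells of the anti-PD-1 library, 417 of the anti-CTLA-4 library and 254 of the combination library, against 1075 of the control library. With a common mix the ratios were 0.22, 0.17 and -0.27, which lie outside the counting intervals of the class values.

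Within single clusters Cd40 went both ways. In cluster 2 it was at 87.5 CPM with anti-PD-1, 84.1 CPM with anti-CTLA-4 and 34.1 CPM with the combination, against 50.8 CPM in control, and the single antibodies had intervals above 0 (0.78, 0.23 to 1.38, and 0.73, 0.14 to 1.35). In cluster 1 the same antibodies were above control (0.53 and 0.69). In the interferon-rich cluster 7 it was at 122 CPM with anti-PD-1, 104 CPM with anti-CTLA-4 and 106 CPM with the combination, against 186 CPM in control, and all 3 ratios (-0.61, -0.84 and -0.82) had intervals below 0. Cluster 4 had between 53.5 and 62.9 CPM in the 4 libraries, with intervals that include 0. Cluster 0 had 125 CPM with anti-PD-1, 76.4 CPM with anti-CTLA-4 and 83.2 CPM with the combination, against 101 CPM in control (0.30, -0.41 and -0.28, the last with an interval that includes 0).

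In the migratory dendritic cell-like cluster, where Cd40 is highest, and in the conventional dendritic cell-like cluster, no antibody library exceeded control. Migratory dendritic cell-like cells had 423 CPM with anti-PD-1, 492 CPM with anti-CTLA-4 and 473 CPM with the combination, against 637 CPM in control. These rest on 45, 61, 64 and 80 UMIs in the same order, and the interval of anti-PD-1 alone lay below 0 (-0.59, -1.15 to -0.05). Conventional dendritic cell-like cells had 136 CPM with anti-PD-1, 95.9 CPM with anti-CTLA-4 and 49.7 CPM with the combination, against 141 CPM in control. The combination lay below control by -1.50 (-2.36 to -0.71) on 18 and 56 UMIs, and below anti-PD-1 by -1.46 (-2.32 to -0.65).

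**Figure D4:**
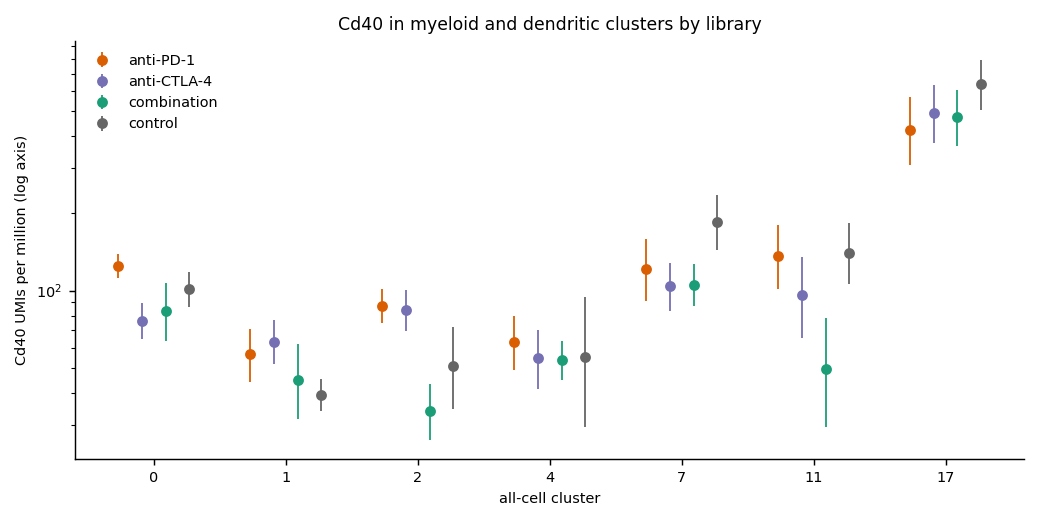
Cd40 level (CPM, log axis) in 7 myeloid and dendritic clusters by library, with exact 95% Poisson intervals. Control is the highest point in clusters 7 and 17, at 186 and 637 CPM, and also in cluster 11. Anti-PD-1 and anti-CTLA-4 lie above control in clusters 1 and 2.

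Of the ligands of these receptors, Cd70 (ligand of CD27), Cd80, Cd86 and Tnfsf4 (ligand of OX40) were highest in migratory dendritic cell-like cluster 17, at 67.2, 102, 552 and 24.4 CPM. Icosl was highest in conventional dendritic cell-like cluster 11 at 19.8 CPM, and Tnfsf18, the GITR ligand, had a single UMI in each of 2 clusters. In T cell-like cells, the combination library had more Cd70 than control (13.3 against 3.65 CPM, a ratio of 1.87, 0.84 to 3.03) and more of the 4-1BB ligand gene Tnfsf9 (38.3 against 13.1 CPM, 1.55, 0.99 to 2.13), the 2 of 4 TNF family ligands with enough UMIs. In macrophage/monocyte-like cells, Icosl (4.07 against 10.97 CPM, -1.43, -2.14 to -0.77) and Cd80 (11.6 against 19.9 CPM, -0.78, -1.21 to -0.36) were lower with the combination, and Cd86 was at -0.19 (-0.32 to -0.06). In T cell-like cells Cd86 was at 16.7 against 35.4 CPM (-1.09, -1.61 to -0.58), a gene of myeloid cells whose source in these counts was not tested.

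Of 16 TRAF and NF-kappaB genes in T cell-like cells, 11 were above 0 with the combination against control, 4 of them past 0.58 higher and 0 past it lower, with a median of 0.29 beside -0.027 over all genes. With anti-PD-1 13 of 16 and with anti-CTLA-4 10 of 16 were above 0, 4 of them past 0.58 higher in each. Among all genes tested 50.2% were above 0 in the anti-PD-1 library, 48.1% in the anti-CTLA-4 library and 47.1% in the combination library. Nfkbia, the inhibitor that NF-kappaB itself induces, was at 721 CPM with the combination against 263 CPM in control (1.45, 1.33 to 1.58), Tnfaip3 (A20), another inhibitor, at 163 against 61.6 CPM (1.40, 1.14 to 1.66), and the adaptor gene Traf3 at 14.0 against 6.20 CPM (1.17, 0.33 to 2.08). Of this list, Nfkbia alone is among the leading genes of lymphoid cluster 1, together with Cd69, Ier2 and Dusp1, genes known to be induced by tissue digestion. That cluster is larger in the combination library. The part of digestion and of that cluster in the result was not tested.

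Of 10 CD28 and ICOS signalling genes in T cell-like cells, 1 was past 0.58 higher and 1 lower with the combination, with a median of -0.08. These counts are near the shares of all genes tested, 9.36% higher and 11.6% lower, with a median of -0.027. Grb2, an adaptor, was at 91.0 CPM against 57.6 CPM in control (0.66, 0.37 to 0.95), and Pik3r1, a subunit of the kinase that both receptors recruit, at 54.7 against 84.3 CPM (-0.62, -0.92 to -0.33). Of 6 other costimulatory receptors 5 had enough UMIs. Tnfrsf25 was at 14.996 CPM with the combination against 8.02 CPM in control (0.90, 0.14 to 1.71), Tnfrsf1b at 39.7 against 53.6 CPM (-0.44, -0.80 to -0.08) and Cd226 at 54.3 against 41.9 CPM (0.37, 0.02 to 0.73).

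In macrophage/monocyte-like cells 12 of 16 TRAF and NF-kappaB genes were above 0 with anti-PD-1 (7 past 0.58 higher, 0 lower, median 0.36), 14 with anti-CTLA-4 (6 higher, 0 lower, median 0.42) and 9 with the combination (5 higher, 2 lower, median 0.15). Among all genes tested in these cells 39.1% were above 0 in the anti-PD-1 library, 36.1% in the anti-CTLA-4 library and 32.8% in the combination library, with the medians given above. Tnfaip3 was at 90.4 CPM with the combination against 25.01 CPM in control (1.85, 1.60 to 2.11), Traf6, an adaptor of CD40, at 13.3 against 5.27 CPM (1.34, 0.76 to 1.94), and Map3k14, a kinase of the noncanonical pathway, at 3.13 against 8.34 CPM (-1.41, -2.23 to -0.66). Of 10 genes known to be induced through CD40, 8 had enough UMIs. Of these 4 were above 0 with anti-PD-1 (3 past 0.58 higher, 2 lower, median -0.15), 6 with anti-CTLA-4 (2 higher, 0 lower, median 0.34) and 3 with the combination (2 higher, 3 lower, median -0.26). Cd83, a maturation marker, was at 39.6 CPM with the combination against 80.6 CPM in control (-1.03, -1.25 to -0.81), and Ccl22 at 4.38 against 2.49 CPM had an interval that includes 0.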

How the data were processed

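For every library the authors deposited a matrix of unnormalised UMI counts, with tables that give cells a cluster number. Cell Ranger, Seurat and the build mm10 are named in the submitters' processing notes. The sources used here do not give versions, annotation or cell filters. Values were summed over cells with Python 3.11.15, numpy 2.4.6, scipy 1.17.1, pandas 2.3.3 and matplotlib 3.10.9. Of 14618 barcodes, 14491 listed cells were used; 127 barcodes are in no cluster and 2 listed cells have no column. No doublet caller was run; T cell-like cells with 2 or more macrophage marker UMIs and macrophage/monocyte-like cells with a Cd3 UMI were left out as an alternative. Barcodes shared by 2 or more libraries number 109 (218 cells) and were kept.

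Clusters were named when at least 3 markers were found in 10% or more of their cells and the 10 leading genes held no more markers of another type; the markers Trac, Trbc2, Trdc, Tcrg-C1, Trdv4 and Ighm were not used here. Ratios of sums have exact conditional binomial intervals, levels exact Poisson intervals and shares exact Clopper-Pearson intervals. Counts of genes past the fold used genes with at least 20 UMIs over both libraries, with 0.5 UMIs added. The interval was tested on simulated counts drawn as independent Poisson counts, which is what the interval assumes. That test cannot show how well it covers UMIs that share a cell. The genes and gene lists were chosen with earlier results of these data known. Every gene described by name follows a fixed rule: all 8 genes, up to 3 genes per list with the largest combination ratio, and 3 genes of most similar pattern; other genes are named for clusters they lead or as markers. One gene that the rule names is not reported here. Promoter windows exist in the RefSeq table used here for 4 of the 8 genes; those of Tnfrsf9 lie inside its annotated span and are not shown.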

Additional observations from a re-analysis of the deposited data

Results flagged for a closer look

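For some genes the same antibody library stood above control in 1 cluster and below it in another, with both counting intervals on opposite sides of 0; the differences were not tested. With the combination, Icos was at 1.58 in cluster 6 and -1.004 in cluster 10, 2.59 apart on the log2 scale. Cd28 was at 1.18 and -0.49 in the same clusters, 1.68 apart, and Tnfrsf4 at 0.69 and -0.70, 1.39 apart. With anti-CTLA-4, Tnfrsf4 was at 1.00 in cluster 8 and -1.41 in cluster 10, 2.41 apart. Tnfrsf9 was at 0.89 and -0.88 there, 1.77 apart. With anti-PD-1, Icos was at 0.56 in cluster 8 and -0.75 in cluster 9, 1.31 apart. Cd28 was at 0.48 in cluster 8 and -0.63 in cluster 10, 1.11 apart, and Tnfrsf9 at 0.75 in cluster 3 and -0.35 in cluster 10, 1.10 apart. Cd40 was higher in macrophage/monocyte-like cluster 2 than in cluster 7 relative to control: 0.78 and -0.61 with anti-PD-1 (1.39 apart), and 0.73 and -0.84 with anti-CTLA-4 (1.56 apart). Without the top cell of each library the direction of each of these values was the same; the smallest was Cd28 in cluster 8 with anti-PD-1, at 0.32. Without the cells of cluster 10 that lie in lymphoid cluster 11, the intervals of Cd28 (-0.39) and Tnfrsf9 (-0.13) with anti-PD-1 and of Cd28 with the combination (-0.42) include 0.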

How the results depend on the processing

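With 1 library per group, counting intervals are the only error, and Cd40lg, Foxp3-positive cells and dendritic cells are limited by few UMIs. Of 24 alternative values of Cd40 14 stayed within the main interval. Of 45 alternative values of the medians 36 stayed within the main interval, as did 259 of 315 values of single T cell genes, with every value under median-of-ratios scaling, without possible doublets, without top cells and in the lymphoid table's clusters among them. For a median of the 7 genes, the main interval ran from the median of their lower limits to the median of their upper limits. That range is not an exact interval and has no known coverage. A common cluster mix moved the medians against control to 0.026 for anti-PD-1, to -0.35 for anti-CTLA-4 and to -0.18 for the combination. Mean UMIs per cell moved anti-CTLA-4 to -0.21, and leaving out the cycling cluster moved it to -0.41. For the combination against anti-PD-1, thinning reversed the median and Cd27 to 0.19. For the combination against anti-CTLA-4, the median became 0.12 in marker-chosen cells, 0.072 without the cycling cluster and -0.11 per cell. In that comparison Cd27 became -0.030 per cell, Tnfrsf4 -0.11 per cell and -0.048 without the cycling cluster, and Tnfrsf18 -0.065 thinned, -0.0075 in marker-chosen cells, -0.30 per cell and -0.15 without the cycling cluster. Cd40 in macrophage/monocyte-like cells moved with anti-PD-1 to 0.37 (thinned) and 0.22 (common mix). With anti-CTLA-4 it moved to 0.30 (thinned), 0.17 (common mix), 0.35 (marker-chosen cells), 0.29 (per cell) and 0.36 (cluster 0 joined). With the combination it moved to -0.12 (thinned), -0.27 (common mix) and -0.18 (per cell). Apart from the smaller cell sets and the weights that thinning, the mix and per-cell means set by construction, the cause was not tested. Leaving out top cells within single clusters, chosen after seeing the data, was counted only for ratios against control whose interval excluded an equal level. Of these 138 ratios it kept 133 within their interval and reversed 1, Icos with anti-CTLA-4 in lymphoid cluster 7 (-0.77). Leaving the cells of lymphoid cluster 11 out of cluster 10, also chosen after seeing the data, kept 14 of 18 ratios within their interval. With no minimum other than 1 UMI, genes past the fold in T cell-like cells were 19.9% higher and 20.1% lower with anti-PD-1, 18.2% and 23.1% with anti-CTLA-4, and 17.6% and 20.8% with the combination. In macrophage/monocyte-like cells they were 13.9% and 26.1%, 14.2% and 27.9%, and 14% and 32.2% in the same order. Thinning kept the leading all-cell cluster of 8 of 8 genes and the leading lymphoid cluster of 7 of 8, with Cd28 the exception. No paired analysis was possible because each group has 1 library.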
